A study of Mus musculus with 8 samples.

Results

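Voltage-gated sodium channels were followed through 6 mouse genes, taken by name from a fixed list and found among the 55401 genes of the count table: the α subunit genes Scn1a (Nav1.1), Scn2a (Nav1.2), Scn3a (Nav1.3) and Scn8a (Nav1.6) and the β subunit genes Scn2b and Scn4b. All 6 were counted in every library and passed the filter on low counts in every comparison. Libraries came from C57BL/6 mouse tissue labelled hippocampus, and no genotype change, treatment, age or sex is given for any of them. The libraries are of 3 kinds. CaMKIIβ RIP (3 libraries) is RNA recovered by immunoprecipitation with an antibody to CaMKIIβ, the β subunit of the calcium/calmodulin-dependent protein kinase II. IgG RIP (3 libraries) is RNA recovered with an IgG antibody, and Input (2 libraries) is RNA that did not go through immunoprecipitation. The title gives the aim as finding long noncoding RNAs bound to CaMKIIβ, so these protein-coding transcripts are measured beside that aim. Nothing in the labels says that equally grouped libraries came from separate animals or preparations, so the p-values measure the spread between these libraries, which may be technical.

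Each voltage-gated sodium channel is built on 1 large α subunit that forms the pore and opens when the membrane depolarises, which starts and carries the action potential. Small β subunits with a single membrane span attach to it, through a disulfide bond in the case of the proteins of Scn2b and Scn4b, and change its gating and its placement. In brain, Nav1.1 is best known from inhibitory interneurons, Nav1.2 from excitatory neurons and unmyelinated axons, and Nav1.3 from the embryonic and newborn brain. Nav1.6 is the main channel of mature axon initial segments and nodes of Ranvier, and the protein of Scn4b is linked to the resurgent current of Purkinje cells.

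On GRCm38, the build of the counts, 3 of the 4 α subunit genes lie in 1 cluster on chromosome 2. Scn3a (ENSMUSG00000057182.15, minus strand) spans chr2:65457118-65567627, with 12717 bases of exon. Scn2a (ENSMUSG00000075318.13, plus strand) spans chr2:65620771-65767447, with 12867 bases of exon, and begins 53143 bases beyond Scn3a. Scn1a (ENSMUSG00000064329.13, minus strand) spans chr2:66270778-66440840, with 11146 bases of exon. Scn8a (ENSMUSG00000023033.14, plus strand) lies alone at chr15:100869858-101045938 and has 15766 bases of exon. The β subunit genes are neighbours on the plus strand of chromosome 9, 8324 bases apart. Scn2b (ENSMUSG00000070304.12) spans chr9:45117782-45130070 with 4656 bases of exon, and Scn4b (ENSMUSG00000046480.6) spans chr9:45138395-45154152 with 4982 bases of exon. Values are counts over all exons of a gene, UTRs included. Antisense genes overlap Scn1a (Gm13630), Scn2b (Gm10684), Scn2a and Scn3a but share 0 exon bases with them. The α subunit genes have related coding sequences, and how reads with several genomic positions were counted is not given in the sources used here, so a part of the reads could have been assigned between them.

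Scn8a and Scn2b are the members whose levels moved together between the kinds of library, and their start regions are shown for that reason. Each RefSeq window (GRCm38.p6) runs from 250 bases before to 50 bases after an annotated transcript start, here chr15:100870395-100870694 and chr9:45117626-45117925, both on the plus strand. Windows were found for 5 of the 6 genes. Scn8a has 2 of them, and the one shown is that of the upstream start; the other, at chr15:100936021-100936320, holds 53.3% G and C. No base is in capitals, because neither motif searched on both strands, the GC box GGGCGG and the TATA box TATAAA, was found in these windows.
Scn8a: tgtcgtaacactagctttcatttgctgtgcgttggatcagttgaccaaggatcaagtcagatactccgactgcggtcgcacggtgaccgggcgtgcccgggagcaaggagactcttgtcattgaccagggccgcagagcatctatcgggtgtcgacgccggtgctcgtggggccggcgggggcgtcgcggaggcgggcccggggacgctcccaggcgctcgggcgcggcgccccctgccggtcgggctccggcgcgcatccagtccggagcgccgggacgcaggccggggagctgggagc
Scn2b: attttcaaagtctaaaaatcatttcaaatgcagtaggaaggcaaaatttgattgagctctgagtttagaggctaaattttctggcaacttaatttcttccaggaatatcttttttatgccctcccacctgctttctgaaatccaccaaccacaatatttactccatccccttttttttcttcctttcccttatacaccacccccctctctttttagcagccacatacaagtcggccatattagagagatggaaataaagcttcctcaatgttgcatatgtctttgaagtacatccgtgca
The Scn8a window holds 70.0% G and C and the Scn2b window 38.3%, with a median of 52.7% over all 32851 windows of that length. Of those windows, 35.7% hold the GC box letters and 13.6% the TATA box letters. These letters describe the windows only.

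The 8 libraries held 17273957 to 28138289 counts, and the 6 genes 582 counts (Scn3a) to 21952 counts (Scn2a) per library, so counting error was small. The relative SD of a member among CaMKIIβ RIP libraries was 2.77 to 15.3 times its counting error. CaMKIIβ RIP replicate 2 stood apart: it detected 19247 genes, against 24865 to 31152 in the other libraries. The chi-square per gene between its counts and those of the other CaMKIIβ RIP libraries was 43.6 and 53.7, against 27.4 between those libraries, 5.69 to 12.4 among IgG RIP libraries and 4.59 between Input libraries. The tissue label was set against 10 hippocampal and telencephalic and 10 cerebellar granule cell markers, and all were counted in every library, among them Gabra6, Cbln3 and Fat2 of granule cells. The RNA thus carried markers of cerebellum as well as of hippocampus, whatever the label says. Levels are given in CPM, each count as a part of its library's total, with TMM scaling over the 8 libraries. They are shares of a library, so they cannot show how much RNA an antibody recovered, and in bulk tissue fewer cells of a type and less RNA per cell cannot be told apart.

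Among the α subunits, Scn2a had 854, 676 and 814 CPM in the CaMKIIβ RIP libraries, 877, 886 and 821 CPM in the IgG RIP libraries, and 830.2 and 794 CPM in Input. The 3 kinds of library overlapped, and the lowest value was that of CaMKIIβ RIP replicate 2. Scn8a had 671, 597 and 668 CPM in CaMKIIβ RIP, 689, 642 and 708 CPM in IgG RIP, and 517 and 495 CPM in Input. All 6 immunoprecipitated libraries lay above both Input libraries, and the CaMKIIβ RIP and IgG RIP values overlapped. Scn1a had 295, 253 and 347 CPM in CaMKIIβ RIP, 297, 306 and 289 CPM in IgG RIP, and 291 and 295 CPM in Input. Its highest and lowest values were both CaMKIIβ RIP libraries, replicates 3 and 2, and the other groups lay between them. Scn3a, the gene of the early-life channel, had 27.1, 33.8 and 30.3 CPM in CaMKIIβ RIP, 30.8, 31.9 and 23.6 CPM in IgG RIP, and 35.8 and 39.0 CPM in Input. Both Input libraries were above all 6 immunoprecipitated libraries.

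Of the β subunits, Scn2b followed Scn8a. It had 485, 438 and 509 CPM in CaMKIIβ RIP, 483, 454 and 478 CPM in IgG RIP, and 393 and 378 CPM in Input, so that every immunoprecipitated library was above both Input libraries. Scn4b had 77.6, 91.6 and 73.3 CPM in CaMKIIβ RIP, 70.4, 75.1 and 72.6 CPM in IgG RIP, and 70.8 and 74.4 CPM in Input. The groups overlapped, and the highest Scn4b value belonged to CaMKIIβ RIP replicate 2.

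**Figure D1:**
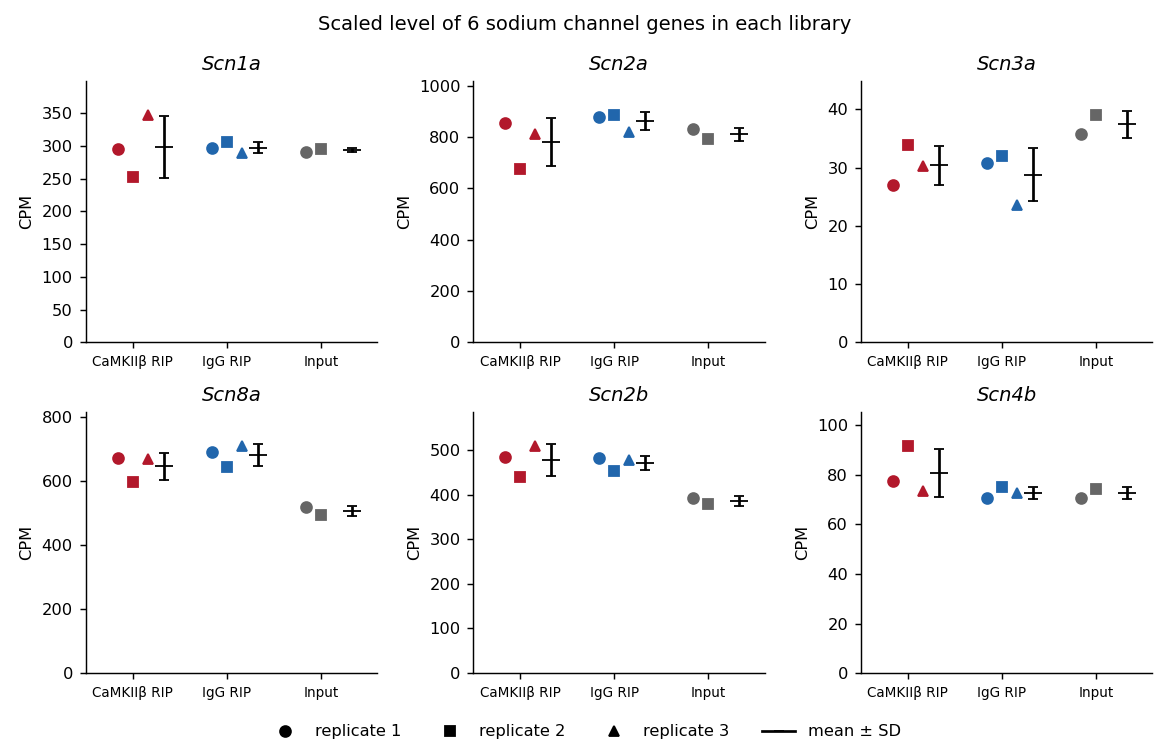
Level of each of the 6 sodium channel genes in every library, in CPM on the vertical axes, for CaMKIIβ RIP, IgG RIP and Input. Points are libraries, with the group mean and SD beside them; Scn8a and Scn2b are lower, and Scn3a higher, in both Input libraries than in all 6 immunoprecipitated libraries.

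Between genes, levels were compared per length, as CPM per kilobase of annotated exon. The order was Scn2b, Scn2a, Scn8a, Scn1a, Scn4b and Scn3a in 8 of 8 libraries. Scn2b averaged 103 ± 7.69 CPM per kilobase in CaMKIIβ RIP, 101 ± 3.35 in IgG RIP and 82.9 ± 2.30 in Input (SD, n = 3, 3 and 2). Scn2a averaged 60.7 ± 7.24 CPM per kilobase in CaMKIIβ RIP, 67.0 ± 2.72 in IgG RIP and 63.1 ± 2.01 in Input, with the same n. Scn8a followed, with 40.9 ± 2.67 CPM per kilobase in CaMKIIβ RIP, 43.1 ± 2.15 in IgG RIP and 32.1 ± 0.991 in Input. These 3 genes were thus the most abundant per length in each kind of library. Scn1a averaged 26.7 ± 4.23 CPM per kilobase in CaMKIIβ RIP, 26.7 ± 0.757 in IgG RIP and 26.3 ± 0.256 in Input. Scn4b averaged 16.2 ± 1.93 in CaMKIIβ RIP, 14.6 ± 0.475 in IgG RIP and 14.6 ± 0.506 in Input on the same scale. Scn3a was lowest, with 2.39 ± 0.266 CPM per kilobase in CaMKIIβ RIP, 2.26 ± 0.357 in IgG RIP and 2.94 ± 0.178 in Input. Neighbours in this order never overlapped, neither within a group nor over all 8 libraries. The narrowest step was from Scn8a, whose lowest library had 31.4 CPM per kilobase, to Scn1a, whose highest had 31.1. The exon lengths are unions over annotated transcripts, so a gene that uses shorter forms in this tissue is understated.

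CaMKIIβ RIP was set against IgG RIP to ask whether sodium channel transcripts were recovered with the CaMKIIβ antibody beyond what IgG recovered. None of the 6 genes passed the test (edgeR quasi-likelihood test, Benjamini-Hochberg adjusted p under 0.05 over 20566 genes), and 0.0% of all genes tested did. At an unadjusted p under 0.05 stood 0 of the 6 and 721 of all genes, which is 3.51%, and DESeq2 called 0 of the 6 and 0 genes. Every member's libraries overlapped between the groups, while 4.57% of all genes had no overlap with CaMKIIβ RIP higher and 7.33% with CaMKIIβ RIP lower.

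The sizes were small and their 95% intervals bound them. Scn4b had the largest positive log2 fold change, 0.16 ± 0.12 (SE; interval -0.10 to 0.43; edgeR adjusted p = 0.982), from 80.8 ± 9.60 CPM in CaMKIIβ RIP and 72.7 ± 2.37 CPM in IgG RIP (SD, n = 3 each). Scn2a had the most negative one, -0.13 ± 0.10 (interval -0.35 to 0.09; edgeR adjusted p = 0.982), from 781 ± 93.2 CPM in CaMKIIβ RIP and 862 ± 35.0 CPM in IgG RIP. Scn8a was at -0.06 ± 0.09 (interval -0.26 to 0.13), Scn2b at 0.03 ± 0.09 (-0.17 to 0.23) and Scn1a at 0.02 ± 0.12 (-0.24 to 0.28). The widest interval was that of Scn3a, the least abundant member, at 0.09 ± 0.17 (-0.29 to 0.47). The median over the 6 genes was 0.02 on the log2 scale and that over all genes -0.02. No gene of the whole table passed under any of the 14 alternatives, which include leaving out each library in turn.

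CaMKIIβ RIP was next set against Input. Again 0 of the 6 genes passed the test, where 5.06% of 22095 genes were higher and 3.4% lower. Scn8a and Scn2b had an unadjusted p under 0.05, as did 22.6% of all genes. The log2 fold change was 0.35 ± 0.10 for Scn8a (SE; 1.28-fold; interval 0.11 to 0.60; edgeR adjusted p = 0.0836) and 0.31 ± 0.11 for Scn2b (1.24-fold; interval 0.06 to 0.56; edgeR adjusted p = 0.137). In both genes all 3 CaMKIIβ RIP libraries were above both Input libraries, as held for 18.8% of all genes. Scn3a, at -0.30 ± 0.17 (interval -0.70 to 0.10; edgeR adjusted p = 0.389), was below Input in all 3 libraries, as held for 28.6% of all genes. Scn4b (0.16 ± 0.14), Scn1a (0.03 ± 0.14) and Scn2a (-0.05 ± 0.12) overlapped, with edgeR adjusted p from 0.636 to 0.957. The median of the 6 genes was 0.09 and that of all genes -0.12.

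The calls of Scn8a and Scn2b against Input moved with the libraries and with the fit. Without CaMKIIβ RIP replicate 2, the log2 fold change was 0.47 for Scn8a (edgeR adjusted p = 0.0133) and 0.43 for Scn2b (edgeR adjusted p = 0.0193), and both passed. The whole table then held 2471 genes higher and 1618 lower of 21901 tested, against 1117 higher and 751 lower of 22095 with every library. DESeq2 also called both (adjusted p = 0.00549 for Scn8a and 0.0219 for Scn2b). In the whole table it called 3570 of the 13088 genes that it gave an adjusted p, where edgeR called 1868 of 22095. The edgeR fit of all 8 libraries together called both as well (edgeR adjusted p = 0.0202 for Scn8a and 0.0398 for Scn2b), and with no count filter Scn8a passed (edgeR adjusted p = 0.0346). Without CaMKIIβ RIP replicate 1, in contrast, edgeR called 0 genes in the whole table, where 4607 genes, of the 6 members Scn8a, had an unadjusted p under 0.05.

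IgG RIP was then set against Input, a comparison that does not involve the CaMKIIβ antibody. Here Scn8a and Scn2b rose and Scn3a fell, where 20.1% of 22342 genes were higher and 18.7% lower. Scn8a averaged 680.0 ± 34.0 CPM in IgG RIP and 506 ± 15.6 CPM in Input (SD, n = 3 and 2), a log2 fold change of 0.48 ± 0.06 (SE; 1.40-fold; edgeR adjusted p = 8.93e-06). Scn2b averaged 471 ± 15.6 CPM in IgG RIP and 386 ± 10.7 CPM in Input, a log2 fold change of 0.34 ± 0.06 (1.27-fold; edgeR adjusted p = 0.000187). Neither gene's libraries overlapped, as held with IgG RIP higher for 26.8% of all genes. Scn8a passed under all 13 alternatives. Scn2b passed under 11 and missed the threshold when libraries were scaled by total counts alone (0.12, edgeR adjusted p = 0.112) and in a fit of all 8 libraries (0.29, edgeR adjusted p = 0.0527).

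Scn3a averaged 28.8 ± 4.55 CPM in IgG RIP and 37.4 ± 2.26 CPM in Input, a log2 fold change of -0.33 ± 0.12 (0.797-fold; edgeR adjusted p = 0.0474). Its IgG RIP libraries were all below Input, as held for 33.8% of all genes. This call was the least stable of the 3. It was kept under 4 of the 13 alternatives, among which the adjusted p ranged from 0.00274 to 0.316. IgG RIP replicate 3 was the lowest library, and without it the value was -0.20 (edgeR adjusted p = 0.134). It was also lost without IgG RIP replicate 1 (-0.38, edgeR adjusted p = 0.0559), without Input replicate 1 (-0.39, edgeR adjusted p = 0.0825) and without Input replicate 2 (-0.26, edgeR adjusted p = 0.316).

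For the remaining members, Scn2a had a log2 fold change of 0.14 ± 0.06 (interval 0.01 to 0.27; edgeR adjusted p = 0.0755), from 862 ± 35.0 CPM in IgG RIP and 812 ± 25.8 CPM in Input. It passed without IgG RIP replicate 3 (0.18, edgeR adjusted p = 0.0132) and with DESeq2 (0.15, adjusted p = 0.0203). Scn1a was at 0.07 ± 0.06 (interval -0.05 to 0.20) and Scn4b at 0.06 ± 0.08 (-0.11 to 0.22), with edgeR adjusted p of 0.365 and 0.613. The median of the 6 genes was 0.11 and that of all genes -0.02. The comparisons of CaMKIIβ RIP and of IgG RIP with Input share the same 2 Input libraries, so likeness of their values is partly built in.

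**Figure D2:**
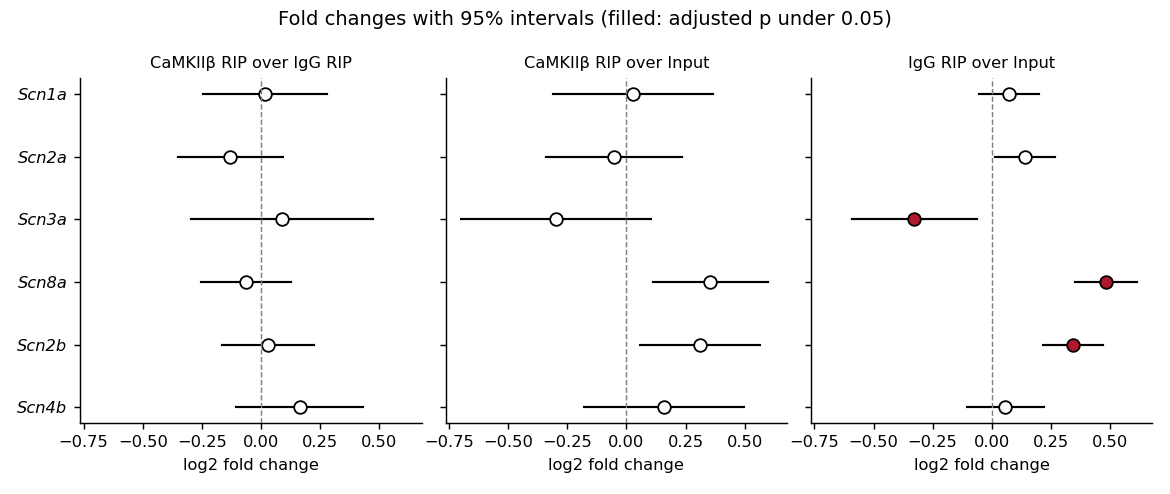
Log2 fold change of each sodium channel gene, with its 95% interval, in CaMKIIβ RIP over IgG RIP, CaMKIIβ RIP over Input and IgG RIP over Input. Filled points passed an adjusted p under 0.05 (edgeR quasi-likelihood test): Scn3a, Scn8a and Scn2b in IgG RIP over Input, and no member in the other panels.

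Other measured differences ran beside these. The summed CPM of the 10 granule cell markers was 6604 to 7369 in CaMKIIβ RIP, 6833 to 7224 in IgG RIP and 4237 to 4344 in Input. The 10 Purkinje cell markers summed to 7476 to 8632 CPM in CaMKIIβ RIP, 7550 to 8016 CPM in IgG RIP and 4536 to 4545 CPM in Input. Most of that sum was Itpr1, which averaged 6515 CPM in CaMKIIβ RIP, 6229 CPM in IgG RIP and 2526 CPM in Input. Calb1 averaged 299 CPM in CaMKIIβ RIP, 285 CPM in IgG RIP and 480 CPM in Input, and Car8 averaged 529 CPM in CaMKIIβ RIP, 526 CPM in IgG RIP and 775 CPM in Input, so these Purkinje cell markers were lower in both kinds of RIP. In the granule cell list, Fat2 averaged 4295 CPM in CaMKIIβ RIP, 4374 CPM in IgG RIP and 1557 CPM in Input, while Gabra6 averaged 232 CPM in CaMKIIβ RIP, 219 CPM in IgG RIP and 418 CPM in Input. The 7 named astrocyte markers of 8 summed to 9179 to 10566 CPM in CaMKIIβ RIP, 9909 to 11085 CPM in IgG RIP and 4873 to 5011 CPM in Input. For 9 oligodendrocyte lineage markers the sums were 10053 to 10439 CPM in CaMKIIβ RIP, 9555 to 10166 CPM in IgG RIP and 5794 to 5816 CPM in Input. The 10 hippocampal and telencephalic markers summed to 1075 to 1367 CPM in CaMKIIβ RIP, 1327 to 1373 CPM in IgG RIP and 1024 to 1040 CPM in Input. The 10 inhibitory interneuron markers, cells known for Nav1.1, summed to 1362 to 1487 CPM in CaMKIIβ RIP, 1398 to 1411 CPM in IgG RIP and 1240 to 1301 CPM in Input. None of the named markers was at 0 in every library, and their part in the sodium channel differences was not tested.

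Exon length also moved with the difference from Input. The median log2 fold change of IgG RIP over Input was -0.17 for genes with under 2000 bases of exon and 0.14 for those with 10000 to 20000 bases. At the exon length of each gene, the fitted trend was 0.14 for Scn8a, 0.11 for Scn3a and 0.0045 for Scn2b, on the log2 scale. With the trend removed, the log2 fold change of IgG RIP over Input was 0.34 for Scn8a (edgeR adjusted p = 0.000248) and 0.34 for Scn2b (edgeR adjusted p = 0.000211). Any other part of exon length in these differences was not tested.

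The composition of the α subunits within a library does not depend on the scaling between libraries. It was taken as the share of each gene in the summed counts per length of Scn1a, Scn2a, Scn3a and Scn8a. Scn2a held the largest share, 48.3, 45.4 and 45.5% in CaMKIIβ RIP, 48.4, 49.4 and 46.8% in IgG RIP, and 51.1 and 50.3% in Input. Scn8a held 31.0, 32.7 and 30.4% in CaMKIIβ RIP, 31.0, 29.2 and 32.9% in IgG RIP, and 26.0 and 25.6% in Input. Scn8a was thus a larger and Scn2a a smaller part of the α subunit counts in each of the 6 immunoprecipitated libraries than in either Input library. Scn1a held 19.2, 19.6 and 22.4% in CaMKIIβ RIP, 18.9, 19.6 and 19.0% in IgG RIP, and 20.7 and 21.6% in Input. Scn3a held 1.55, 2.30 and 1.71% in CaMKIIβ RIP, 1.72, 1.80 and 1.36% in IgG RIP, and 2.23 and 2.50% in Input.

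Against Input, the Scn8a share was higher by 5.59 percentage points in CaMKIIβ RIP and by 5.27 points in IgG RIP, and that of Scn2a differed by -4.33 points in CaMKIIβ RIP and -2.56 points in IgG RIP. Each of these gave an exact two-sided permutation p of 0.2, which is the smallest that 3 against 2 libraries allow. Between CaMKIIβ RIP and IgG RIP the differences were 0.33 points for Scn8a and -1.78 points for Scn2a, with exact permutation p of 1.0 and 0.2, where 0.1 is the smallest possible. None of the 12 tests of shares passed (adjusted p 0.343 to 1.0), and none could have. The ratio of Scn8a to Scn2a per length was 0.641, 0.720 and 0.670 in CaMKIIβ RIP, 0.641, 0.592 and 0.704 in IgG RIP, and 0.508 and 0.509 in Input.

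**Figure D3:**
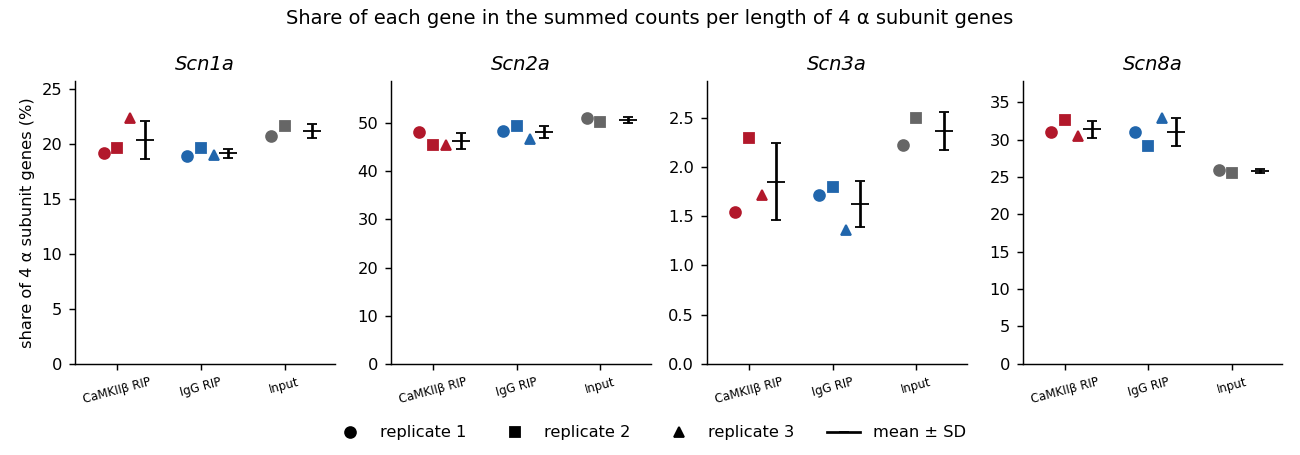
Share of Scn1a, Scn2a, Scn3a and Scn8a in the summed counts per length of these 4 α subunit genes, in percent, by library and kind of library, with the mean and SD of each group. The Scn8a share is 29.2 to 32.9% in the 6 immunoprecipitated libraries and 25.6 to 26.0% in Input.

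Further genes of the family were a list of 7, of which 5 could be tested. In IgG RIP against Input 1 of these rose and 1 fell, where 20.1% of all genes were higher and 18.7% lower. Nalcn, the sodium leak channel, averaged 190 ± 1.62 CPM in IgG RIP and 146 ± 6.02 CPM in Input and rose by 0.43 ± 0.06 on the log2 scale (edgeR adjusted p = 3.46e-05). Scn9a (Nav1.7, best known from sensory neurons) had 8.51, 8.30 and 8.61 CPM in IgG RIP and 15.8 and 15.3 CPM in Input, and fell, with a log2 fold change of -0.82 ± 0.15 (edgeR adjusted p = 0.00023). It shares 180 exon bases, 1.41% of its exons, with the antisense gene Gm13629. In a fit of all 8 libraries the Scn9a call was lost (edgeR adjusted p = 0.0859).

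In CaMKIIβ RIP against Input, 0 of these 5 genes passed with edgeR, though 2 had an unadjusted p under 0.05 and DESeq2 called 2. In the whole table, 22.6% of genes had an unadjusted p under 0.05 in edgeR. DESeq2 called 3570 of the 13088 genes that it gave an adjusted p. Scn9a had 6.78, 3.49 and 8.19 CPM in CaMKIIβ RIP, all below Input, as held for 28.6% of all genes. Its log2 fold change was -1.33 ± 0.38 (edgeR adjusted p = 0.0743). The value was 0.38 ± 0.13 for Nalcn (edgeR adjusted p = 0.132). Without CaMKIIβ RIP replicate 2, Scn9a passed (-0.99, edgeR adjusted p = 0.0193). Against IgG RIP edgeR and DESeq2 called 0, with 0 of 5 at an unadjusted p under 0.05 in edgeR. Scn9a, at -0.45 ± 0.33, was the only one of them without overlap. Its CaMKIIβ RIP libraries were all lower, as held for 7.33% of all genes. Scn3b, a further β subunit gene, averaged 75.1 ± 5.79 CPM in CaMKIIβ RIP, 78.2 ± 4.40 CPM in IgG RIP and 81.0 ± 4.68 CPM in Input. It passed in none of the comparisons with the main fit. Scaled by total counts it passed as lower in IgG RIP against Input (-0.22, edgeR adjusted p = 0.0413), as did 6345 of 22342 genes.

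The remaining genes of this list had low counts or none. Scn7a had at most 1.90 CPM and Scn11a (Nav1.9, a sensory neuron channel) at most 1.98 CPM in any library, and both had 0 counts in CaMKIIβ RIP replicate 2. Scn4a, the skeletal muscle channel, had 0 to 17 counts, and Scn10a (Nav1.8) had 0 counts in all 8 libraries. A count of 0 allows up to 3 counts, which is 0.112 to 0.174 CPM here.

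Genes that bind or modify the channels were a list of 16, of which 15 were tested and Tmem233 was not. In IgG RIP against Input 8 rose and 3 fell, where 20.1% of all genes were higher and 18.7% lower. The median log2 fold change was 0.28 in the list and -0.02 over all genes. The largest rises were Ptprz1, a receptor phosphatase of sodium channels (0.66 ± 0.07, edgeR adjusted p = 5.31e-07), and Map1b, a microtubule-associated protein (0.64 ± 0.06, edgeR adjusted p = 4.62e-07). The largest falls were Fgf12, an intracellular fibroblast growth factor homologue that binds the α subunit's C terminus (-0.92 ± 0.07, edgeR adjusted p = 1.53e-08), and the calmodulin gene Calm2 (-0.75 ± 0.06, edgeR adjusted p = 2.88e-08). The related Fgf14 fell as well (-0.28 ± 0.08, edgeR adjusted p = 0.0124), whereas the calmodulin gene Calm3 rose (0.46 ± 0.07, edgeR adjusted p = 3.27e-05). Nedd4l, a ubiquitin ligase that acts on the channels, rose (0.28 ± 0.06, edgeR adjusted p = 0.00136).

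In CaMKIIβ RIP against Input, 2 of the 15 genes rose and 2 fell, where 5.06% of all genes were higher and 3.4% lower. The median was 0.21 in the list and -0.12 over all genes. Cntn1, the adhesion molecule contactin, had 616, 692 and 674 CPM in CaMKIIβ RIP and 469 and 469 CPM in Input (log2 fold change 0.50 ± 0.10, edgeR adjusted p = 0.029). Pacs1 rose by 0.65 ± 0.15 on the log2 scale (edgeR adjusted p = 0.0379). Fgf12 had 67.1, 92.1 and 111 CPM in CaMKIIβ RIP and 159 and 162 CPM in Input (-0.83 ± 0.20, edgeR adjusted p = 0.0475), and Calm2 had 327, 328 and 321 CPM in CaMKIIβ RIP and 557 and 561 CPM in Input (-0.78 ± 0.09, edgeR adjusted p = 0.00729). DESeq2 called 8 genes of this list where edgeR called 4. Over the whole table DESeq2 called 3570 of the 13088 genes that it gave an adjusted p, and edgeR 1868 of 22095. Scaling by total counts left 0 higher and 3 lower (Calm2, Fgf12 and Fgf14), where 683 of 22095 genes were higher and 1361 lower. Of the list, 7 genes passed without CaMKIIβ RIP replicate 2, where the whole table held 2471 higher and 1618 lower of 21901. Not every call was kept without either Input library, which leaves that group with 1 library. Fgf12 missed the threshold under RLE scaling (edgeR adjusted p = 0.0545) and where 10 counts were asked of every library of a group (edgeR adjusted p = 0.052). Against IgG RIP both tools called 0 (median -0.10), with 1 gene at an unadjusted p under 0.05 in edgeR.

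Scaffolds of the axon initial segment and the node of Ranvier, where the channels are anchored, were a list of 13. In CaMKIIβ RIP against Input 8 rose and 0 fell (median 0.71), where 5.06% of all genes were higher and 3.4% lower (median -0.12). In IgG RIP against Input 11 rose and 0 fell (median 0.82), where 20.1% of all genes were higher and 18.7% lower (median -0.02). Log2 fold changes were positive for 11 of the 13 in CaMKIIβ RIP and 12 of the 13 in IgG RIP. Kcnq3 was negative in both (-0.27 ± 0.13 and -0.16 ± 0.08) and did not pass. With the replicate number as a block it passed as lower in CaMKIIβ RIP, among 2219 genes of the whole table. Sptbn1 (βII spectrin) had 3024, 2564 and 2362 CPM in CaMKIIβ RIP, 2981, 2781 and 2920.2 CPM in IgG RIP, and 1082 and 1055 CPM in Input. Its log2 fold change over Input was 1.31 ± 0.13 in CaMKIIβ RIP (edgeR adjusted p = 0.00448) and 1.49 ± 0.06 in IgG RIP (edgeR adjusted p = 2.98e-11). Sptan1 (αII spectrin) followed, at 1.04 ± 0.11 in CaMKIIβ RIP (edgeR adjusted p = 0.00594) and 1.10 ± 0.06 in IgG RIP (edgeR adjusted p = 6.54e-10). Ank3, which encodes the ankyrin G that binds the α subunits, was at 0.72 ± 0.14 in CaMKIIβ RIP (edgeR adjusted p = 0.0265) and 0.96 ± 0.06 in IgG RIP (edgeR adjusted p = 3.56e-09). Against IgG RIP edgeR and DESeq2 called 0 of 13 (median -0.06), with none at an unadjusted p under 0.05. In CaMKIIβ RIP against Input, 5 scaffold genes passed without Input replicate 1, and 2, Sptan1 and Sptbn1, without Input replicate 2. The whole table then held 461 genes higher and 384 lower without Input replicate 1, and 256 higher and 144 lower without Input replicate 2. Without CaMKIIβ RIP replicate 1 no gene of either list passed in CaMKIIβ RIP against Input, since the whole table then gave 0 calls.

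**Figure D4:**
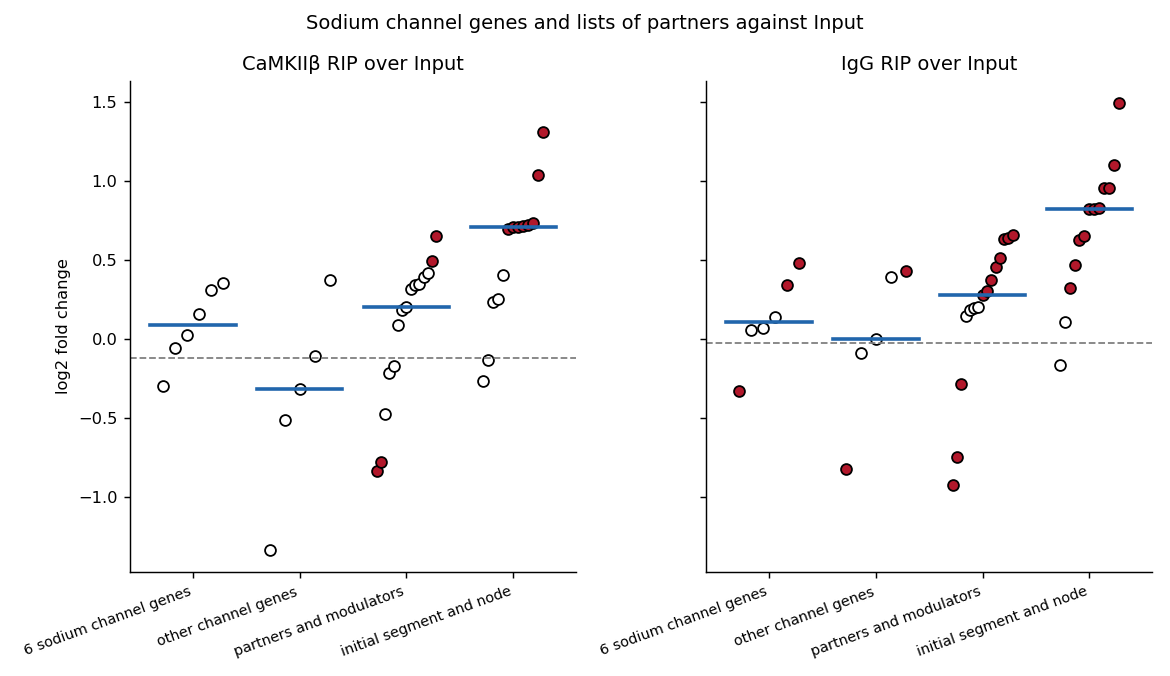
Log2 fold changes of the genes in the lists of further sodium channel genes, partners and modulators, and initial segment and node scaffolds beside the 6 sodium channel genes, in CaMKIIβ RIP over Input and IgG RIP over Input. Filled points passed an adjusted p under 0.05, blue bars are list medians and the dashed line is the median of all genes. In IgG RIP over Input, 2 of 6 sodium channel genes passed as higher and 1 as lower. Of 13 scaffold genes 11 passed as higher and 0 as lower, against 20.1% and 18.7% of all genes.

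The likeness of each member to other genes was measured as Pearson's r of log2 CPM over the 8 libraries, among the 12903 named genes whose average log2 CPM reached 1. These values describe 8 libraries that fall into immunoprecipitated and Input libraries. A member that differs between those kinds gets a high r with any gene that differs in the same way. The kinds overlapped for Scn1a, Scn2a and Scn4b. CaMKIIβ RIP replicate 2 was the lowest library for Scn1a and Scn2a and the highest for Scn4b, and its part in their r was not tested. Scn8a was most like Grik3, Scrn1 and Auts2 (r = 0.996 each). Scn2b was most like Aplp2 (0.997), Map4 (0.993) and Plcl2 (0.991). Scn1a was most like Lmnb1 (0.984), Nfia (0.979) and Bcat2 (0.977), and Scn2a was most like Rnf141 (0.985), Slitrk2 (0.977) and Ftsj1 (0.977). For Scn3a the first were Moxd1 (0.975), Emc7 (0.970) and Donson (0.965), and for Scn4b Slain1 (0.981), Dusp14 (0.981) and Cog2 (0.978). No member was among the 3 genes most like another member.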

How the data were processed

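The deposited table holds raw counts per gene for 8 RNA libraries. Per the submitters' processing notes, reads were trimmed with Trim Galore 0.6.4 and cutadapt 2.10, aligned with STAR 2.7.3a to GRCm38.p6 (mm10) and counted with featureCounts 2.0.1. Strandedness, duplicate removal and the treatment of reads with several positions are not given in the sources used here. Column names gave the group of each library, which are 3 of CaMKIIβ RIP, 3 of IgG RIP and 2 of Input.

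Ensembl genes took the symbol of the RefSeq gene on GRCm38.p6 that was their mutual best partner by shared span (at least 0.5, and no second partner at 0.8 of that value). Of 55401 genes 34132, with 96.1% of counts, were named. The quasi-likelihood F test of edgeR 4.0.16 (robust, R 4.3.3) was run separately for each comparison, on the libraries of its groups, after TMM scaling and filterByExpr (count 10, total 15). Adjustment was by Benjamini-Hochberg over all genes tested, with a threshold of 0.05. CPM used TMM over all 8 libraries. α subunit shares were tested by exact permutation (two-sided, SciPy 1.17.1) and adjusted over 12 tests. The fits were tested on simulated data.

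The members, gene lists and markers were chosen with earlier results of these data known. Of the listed genes, 2 further sodium channel genes, 1 gene that binds or modifies the channels and 1 scaffold gene are not reported here. They are left out of the list counts, medians and figures, for a reason other than their values, and stay in the whole-table fits. The genes named were the 6 members, the further sodium channel genes, the 2 largest changes each way per further list, list genes needed for their role, the 3 most alike per member, and overlapping genes. Alternatives were RLE and library size scaling, other count filters, DESeq2 1.42.0, 1 fit for every library, the replicate number as a block, a removed length trend (loess span 0.5) and each library left out.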

Additional observations from a re-analysis of the deposited data

How the results depend on the processing

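Against IgG RIP, 0 sodium channel genes passed under all 14 alternatives. For CaMKIIβ RIP against Input the count of 0 became 1 with no count filter (Scn8a), 2 with DESeq2 and 2 in the fit of all 8 libraries (Scn8a and Scn2b), and lay between 0 and 2 with 1 library left out. For IgG RIP against Input the count of 3 became 1 in the fit of all 8 libraries (Scn8a) and lay between 2 and 3 with 1 library left out. With the replicate block, 1 member passed in CaMKIIβ RIP against Input (Scn8a, 0.33, edgeR adjusted p = 0.0356). In IgG RIP against Input, Scn2a passed with it (0.17, edgeR adjusted p = 0.00426) and Scn3a did not (-0.20, edgeR adjusted p = 0.153). Libraries with equal numbers did not deviate together (r from -0.048 to 0.062). With so few libraries per group, these values cannot show whether equal numbers shared animals or preparations. Scaling by total counts moved the median of all genes by -0.17 in CaMKIIβ RIP and -0.23 in IgG RIP, both against Input, and the calls over all genes from 1117 higher and 751 lower to 683 and 1361, and from 4483 and 4170 to 2714 and 6345. In CaMKIIβ RIP against Input, DESeq2 called 2171 genes higher and 1399 lower of 13088 that it gave an adjusted p. All-gene calls were 1986 and 2219 of 22095 with the replicate block. They were 2070 and 1763 of 23108 in the fit of all 8 libraries, and 1854 and 1012 of 34368 with no count filter.

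Signs turned for small or poorly counted changes. Scaling by total counts gave log2 fold changes against Input of -0.14 for Scn1a and -0.0059 for Scn4b in CaMKIIβ RIP, and of -0.15 for Scn1a, -0.085 for Scn2a, -0.17 for Scn4b and -0.22 for Scn3b (edgeR adjusted p = 0.0413) in IgG RIP. The replicate block gave -0.10 for Scn1a in CaMKIIβ RIP and 0.085 for Scn7a in IgG RIP against Input. With no count filter Scn2a was at 0.015 in CaMKIIβ RIP and Scn3b at -0.0082 in IgG RIP against Input, and Nalcn at -0.00018 against IgG RIP. The fit of all 8 libraries gave -0.050 for Scn3b in IgG RIP against Input and -0.0055 for Nalcn against IgG RIP. Removal of the length trend gave -0.022 for Scn1a and -0.021 for Scn3b in IgG RIP against Input. With 1 library left out, values of CaMKIIβ RIP over IgG RIP ran from -0.11 to 0.12 for Scn1a, -0.042 to 0.17 for Scn3a, -0.024 to 0.085 for Scn2b, -0.97 to 0.21 for Scn7a and -0.061 to 0.088 for Nalcn. Those of CaMKIIβ RIP over Input ran from -0.091 to 0.19 for Scn1a, -0.10 to 0.10 for Scn2a, -1.06 to 0.13 for Scn7a and -0.94 to 0.32 for Scn11a. Those of IgG RIP over Input ran from -0.056 to 0.064 for Scn3b and -0.40 to 0.11 for Scn7a. The cause of these changes was not tested, and where a group was left with 1 library it was assumed to vary like the others. Differences in α subunit shares moved by less than 1 SD under each alternative tried, but with 1 library left out those of CaMKIIβ RIP minus IgG RIP ran from -0.60 to 1.26 percentage points for Scn8a and from 0.24 to 1.82 for Scn1a.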
